A study of Mus musculus with 16 samples.

Results

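The 7 genes Csf2ra, Csf2rb, Il3ra, Csf3r, Flt3, Il6ra and Epor encode receptors through which blood cells sense growth factors and cytokines. They were followed in endothelial and blood cells of the mouse embryo on 16 Agilent 1-colour arrays. The genes were chosen by name, and every probe whose gene name in the scanner files was one of the 7 was taken. This gave 10 of 55594 probes, and all 7 genes passed the filter on dim probes among 24589 genes tested. Cells had been sorted from E11.5 conceptuses as positive for VE-cadherin, the product of Cdh5 at endothelial junctions, and as either negative or positive for CD45, the product of Ptprc on leukocytes. They came from the embryo proper or from the yolk sac, of mice labelled Tie-2-Etv2 or of control mice. The 8 groups were thus Tie-2-Etv2 and control CD45- cells of the embryo, Tie-2-Etv2 and control CD45+ cells of the embryo, Tie-2-Etv2 and control CD45- cells of the yolk sac, and Tie-2-Etv2 and control CD45+ cells of the yolk sac, each with 2 arrays. All mice shared a mixed strain background (B6/CBA and others), and all cells shared the VE-cadherin sort. The sources used here do not say how the Tie-2-Etv2 construct was made or in which cells it is active.

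Csf2ra, Csf2rb, Il3ra, Csf3r, Il6ra and Epor encode chains of type I cytokine receptors, which have no kinase of their own and signal through Janus kinases bound to their tails and through STAT transcription factors. Flt3 encodes a receptor tyrosine kinase. In the midgestation embryo such receptors mark blood progenitors and their progeny, part of which arise from endothelium in the yolk sac and the embryo proper. Etv2 encodes an ETS transcription factor needed early for blood and endothelial fate.

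Levels are log2 processed intensities minus the 75th percentile of the array, so that 0 is the level of the probe at that percentile, and levels of different probes cannot be set against each other. Between 50.6 and 59.9% of probes were well above background on an array, no spot was saturated, and replicate arrays correlated across probes at 0.975 to 0.992. Etv2 stood between 0.11 and 3.90 on Tie-2-Etv2 arrays and between −6.20 and −0.13 on control arrays, and was higher on Tie-2-Etv2 arrays in each of the 4 populations. Ptprc stood between 2.06 and 3.56 on CD45+ arrays, while it was not well above background on the embryo CD45- arrays of either genotype or on the control yolk sac CD45- arrays. On the Tie-2-Etv2 yolk sac CD45- arrays it was well above background, at −2.92 and −3.43. Cdh5, which should mark every sorted cell, stood at 4.72 to 5.99 on CD45- arrays, at 1.65 and 1.99 on Tie-2-Etv2 embryo CD45+ arrays, at 2.86 and 3.13 on Tie-2-Etv2 yolk sac CD45+ arrays, and at −0.66 to 0.33 on control CD45+ arrays. Embryo and yolk sac were on 1 slide each and scanned apart, the gates on separate slide rows and the genotypes on separate slide columns, so that tissue, gate and genotype cannot be told apart from these positions. The labels do not say that replicates came from different embryos or litters, so the p-values describe the scatter of these arrays, some of which may be technical. In sorted bulk samples, fewer cells of a type and less RNA per cell cannot be told apart.

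The first question was how the receptors stood in Tie-2-Etv2 cells against control cells of the same tissue and gate. Csf2ra, Csf2rb, Csf3r, Il6ra and Epor were, in yolk sac CD45- cells, higher in Tie-2-Etv2 cells and Il3ra was lower, and Flt3 did not pass the test. Epor, Il6ra and Csf2ra were lower and Csf2rb was higher in Tie-2-Etv2 cells of the yolk sac CD45+ gate. In the embryo none of the 7 passed in either gate. The change of Il6ra, 21.0-fold higher in yolk sac CD45- cells, and that of Epor, 5.21-fold lower in yolk sac CD45+ cells, were the largest of the 7 receptors in these 4 comparisons.

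The test was limma over all 16 arrays, with p-values adjusted by Benjamini-Hochberg over all genes of a comparison and called at 0.05. It called 6 of the 7 receptors in yolk sac CD45- cells, beside 41.8% of all genes (26.1% higher and 15.8% lower). Of those calls 62.3% were higher, against 42% with the percentile taken over probes detected on all arrays. For yolk sac CD45+ cells the count was 4 of 7, beside 32.5% of all genes (18.1% higher and 14.4% lower). The median difference over the 7 was 1.01 in yolk sac CD45- cells, where that of all genes was 0.18, and −0.22 in yolk sac CD45+ cells, where that of all genes was 0.038. In the embryo the count was 0 of 7 in both gates, beside 1.29% of all genes in CD45- cells (1.25% higher and 0.0325% lower) and 3.01% in CD45+ cells (2.29% higher and 0.712% lower). Of the CD45+ calls 76.3% were higher, against 58.5% with normexp correction. At an unadjusted p under 0.05 it was 2 of 7 in each embryo gate. Of all 24589 genes, 1717 in embryo CD45- cells and 3974 in embryo CD45+ cells passed at that level.

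Markers of several cell types moved with genotype in the same yolk sac samples, and their part in the receptor values was not tested. The summed level of 6 leukocyte markers in yolk sac CD45- cells was 7.01 to 7.61 on Tie-2-Etv2 arrays (6 of 6 well above background on both) and 1.36 to 1.46 on control arrays (4 of 6, with Ptprc and Cd52 on neither). The sum of 8 granulocyte markers was 6.35 to 6.68 on Tie-2-Etv2 arrays and 0.88 to 1.19 on control arrays, with Ctsg, S100a8, S100a9 and Ms4a3 on neither control array. The sum of 6 megakaryocyte markers was 9.31 to 9.63 on Tie-2-Etv2 arrays and 2.36 to 2.84 on control arrays, where Rgs18 was on neither. The 8 macrophage markers summed to 5.35 to 5.45 on Tie-2-Etv2 arrays and 4.75 to 4.99 on control arrays, with C1qa and C1qc not well above background in either group and Cx3cr1 on neither control array. Other sums were lower on Tie-2-Etv2 arrays of these cells, among them the erythroid sum given with Epor below. The 10 endothelial markers summed to 9.39 to 9.45 on Tie-2-Etv2 arrays and 10.1 to 10.3 on control arrays, and 7 of 10 were called lower (median difference −1.51, against 0.18 over all genes). The 8 mesenchymal markers summed to 4.78 to 5.12 on Tie-2-Etv2 arrays and 6.48 to 6.60 on control arrays, with 3 of 8 called lower.

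Among yolk sac CD45+ cells the macrophage markers summed to 6.70 to 6.99 on Tie-2-Etv2 arrays and 10.2 to 10.7 on control arrays, all 8 above background on every array. The granulocyte markers summed to 10.1 to 10.4 on Tie-2-Etv2 arrays and 4.88 to 7.01 on control arrays, and 4 measured mast cell markers of 5 listed to 4.76 to 4.98 on Tie-2-Etv2 arrays and −0.73 to 0.85 on control arrays, where Mcpt8 was on neither. The endothelial markers summed to 8.40 to 8.43 on Tie-2-Etv2 arrays and 5.77 to 5.85 on control arrays. The leukocyte sum was 8.36 to 8.52 on Tie-2-Etv2 arrays and 8.20 to 8.57 on control arrays, and thus overlapped. Of its 6 markers 2 were called lower and none higher, and Ptprc itself stood at 2.08 and 2.06 on Tie-2-Etv2 arrays and at 3.28 and 3.41 on control arrays, with no overlap. The megakaryocyte sum was 7.32 to 7.83 on Tie-2-Etv2 arrays and 8.85 to 9.35 on control arrays, although 4 of its 6 markers were called higher and 2 lower. In the CD45+ gate of the yolk sac, then, the macrophage sum was lower and the granulocyte sum higher on Tie-2-Etv2 arrays.

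**Figure D1:**
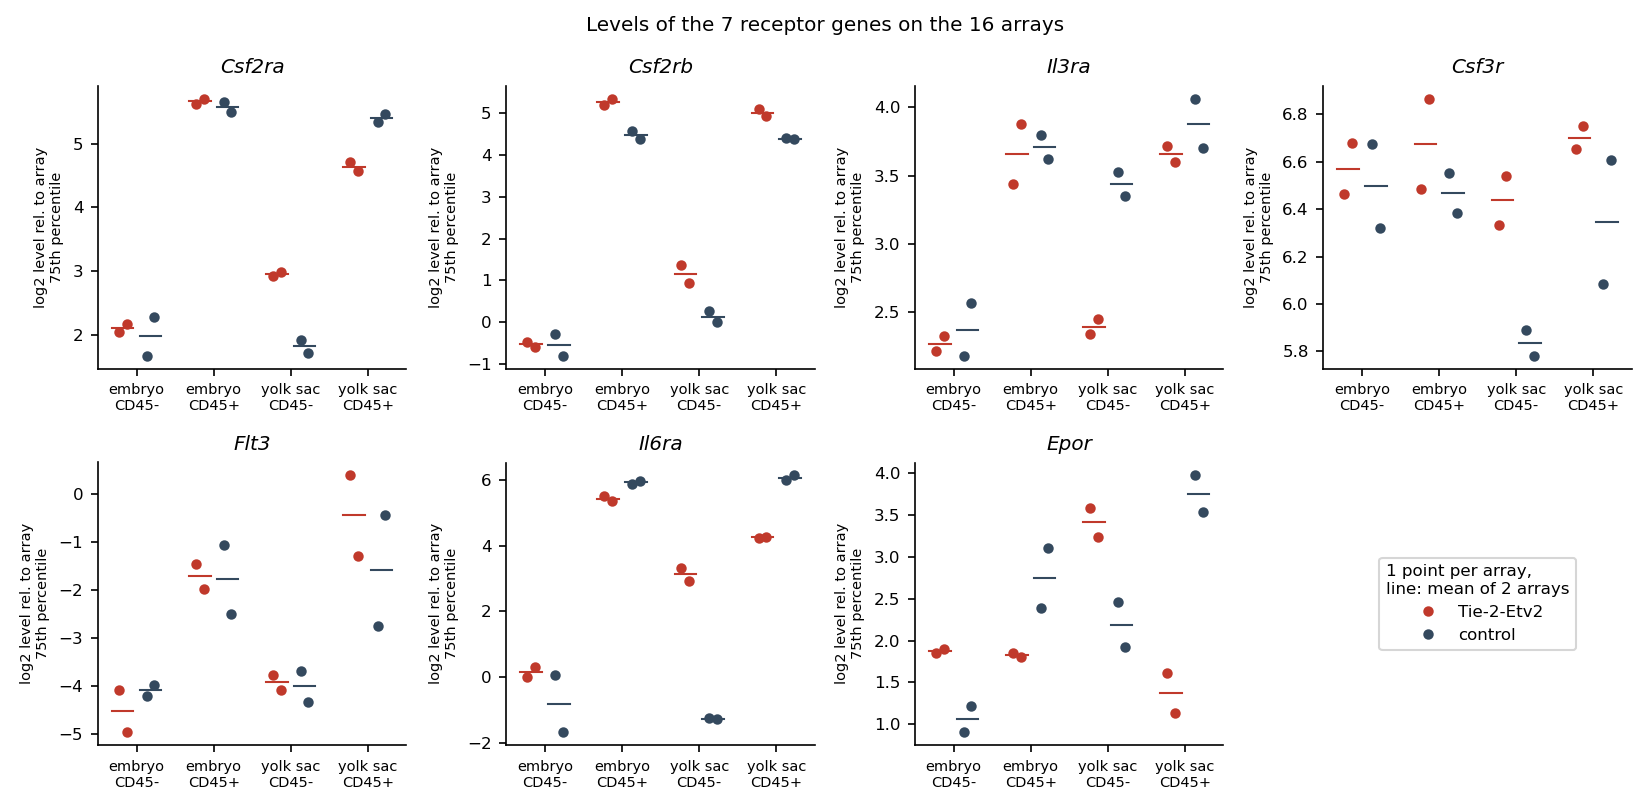
Levels of the 7 receptor genes on the 16 arrays, as log2 processed intensity relative to the 75th percentile of the array; each point is 1 array and each line the mean of 2, with Tie-2-Etv2 left of control in each population. In yolk sac CD45- cells Il6ra stood at 3.31 and 2.93 on Tie-2-Etv2 arrays and at −1.27 and −1.28 on control arrays, while Csf3r varied by only 1.08 over all 16 arrays; the panels have different scales.

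The granulocyte-macrophage receptor chain Csf2ra, which binds the factor GM-CSF, changed in opposite directions in the CD45- and CD45+ gates of the yolk sac. In yolk sac CD45- cells it stood at 2.92 and 2.98 on Tie-2-Etv2 arrays and at 1.92 and 1.71 on control arrays. In yolk sac CD45+ cells it stood at 4.71 and 4.57 on Tie-2-Etv2 arrays and at 5.35 and 5.46 on control arrays. The genotypes did not overlap in either gate, and the 2 gates lay nearer to each other in Tie-2-Etv2 than in control yolk sacs. The difference was 1.14 ± 0.20 in CD45- cells (SE, 2 arrays a group, adjusted p = 0.0012, 2.20-fold higher) and −0.76 ± 0.20 in CD45+ cells (adjusted p = 0.013, 1.70-fold lower). The call in CD45+ cells was lost without Tie-2-Etv2 replicate 2 (−0.70, adjusted p = 0.0819), without control replicate 2 (−0.71, adjusted p = 0.0580), and in a fit of the 4 arrays alone (adjusted p = 0.0656).

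In the embryo the level of Csf2ra followed the gate and not the genotype. Embryo CD45- cells had 2.04 and 2.17 on Tie-2-Etv2 arrays and 1.67 and 2.28 on control arrays. Embryo CD45+ cells had 5.63 and 5.71 on Tie-2-Etv2 arrays and 5.65 and 5.50 on control arrays. The genotypes overlapped in both gates, with differences of 0.13 ± 0.20 in CD45- cells and 0.092 ± 0.20 in CD45+ cells. Of the 7 pairs of neighbours in the order of the 8 group means, 3 had overlapping arrays, all between CD45- groups or between CD45+ groups.

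Csf2rb encodes the beta chain that the GM-CSF, IL-3 and IL-5 receptors share, and was higher in Tie-2-Etv2 cells of both yolk sac gates. On its brighter probe (A_52_P52618), yolk sac CD45- cells had 1.36 and 0.94 on Tie-2-Etv2 arrays and 0.28 and −0.0026 on control arrays. Yolk sac CD45+ cells had 5.10 and 4.93 on Tie-2-Etv2 arrays and 4.40 and 4.38 on control arrays. Neither pair of groups overlapped. The difference was 1.01 ± 0.21 in CD45- cells (adjusted p = 0.0037, 2.01-fold) and 0.62 ± 0.21 in CD45+ cells (adjusted p = 0.047, 1.54-fold). The second call lay close to the threshold: it was lost when any of the 4 arrays was left out (0.54 to 0.71), under quantile normalization (adjusted p = 0.0566), with no filter on dim probes (0.083), in a fit of the 4 arrays alone (0.0959) and in a fit of the yolk sac arrays (0.0619).

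On the same probe embryo CD45+ cells had 5.20 and 5.34 on Tie-2-Etv2 arrays and 4.58 and 4.39 on control arrays, again without overlap. That difference of 0.78 ± 0.21 missed the threshold (adjusted p = 0.0837) but passed with normexp background correction (0.0262), quantile normalization (0.0487), a percentile taken over probes detected on all arrays (0.0416), a trended prior (0.0472) or the mean of the gene's probes (0.0474). Embryo CD45- cells had −0.47 and −0.58 on Tie-2-Etv2 arrays and −0.27 and −0.80 on control arrays, which overlapped. Csf2rb was thus called lower in none of the 4 populations.

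Csf2rb also has the probe A_66_P123635, printed here because it moved the same way but missed the threshold in the yolk sac. It lies at chr15:78179504-78179563 (mm9, plus strand), and the brighter probe at chr15:78181168-78181227. The adjusted p-values of A_66_P123635 are from a limma fit of all 34126 kept probes, each as its own feature. In that fit the brighter probe passed in yolk sac CD45- cells (adjusted p = 0.0042) and missed in yolk sac CD45+ cells (adjusted p = 0.0514).
Csf2rb A_66_P123635: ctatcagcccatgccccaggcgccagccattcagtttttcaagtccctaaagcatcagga
On this probe yolk sac CD45- cells had −1.85 and −1.94 on Tie-2-Etv2 arrays and −2.40 and −2.33 on control arrays, a difference of 0.47 ± 0.17 (adjusted p = 0.0536). The difference was 0.42 in yolk sac CD45+ cells (adjusted p = 0.0995), 0.74 in embryo CD45+ cells (adjusted p = 0.0549) and −0.28 in embryo CD45- cells (adjusted p = 0.948). Mouse cells have a second beta chain gene, Csf2rb2, whose protein serves the IL-3 receptor alone. On its brighter probe Csf2rb2 differed by −0.65 ± 0.32 in yolk sac CD45- cells (adjusted p = 0.131) and by −0.53 ± 0.32 in yolk sac CD45+ cells (adjusted p = 0.242), and so passed in neither. Its other probe (A_55_P2034663) differed by −0.37 ± 0.22 in CD45- and by 0.20 ± 0.22 in CD45+ cells, and also passed in neither. The probes of Csf2rb2 thus went opposite ways in yolk sac CD45+ cells. The brighter probes of the 2 paralogs matched at 31 of 42 bases in their best ungapped alignment and shared no run longer than 10 bases.

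Il3ra encodes the alpha chain that binds interleukin 3, and was the only receptor of the 7 called lower in Tie-2-Etv2 yolk sac CD45- cells. There it stood at 2.34 and 2.45 on Tie-2-Etv2 arrays and at 3.52 and 3.35 on control arrays. The groups were apart, and the Tie-2-Etv2 values lay inside the range of the embryo CD45- arrays, which held 2.21 and 2.32 on Tie-2-Etv2 arrays and 2.18 and 2.56 on control arrays. The difference was −1.04 ± 0.21 (adjusted p = 0.0025, 2.06-fold lower). In CD45+ cells the genotypes overlapped both in the embryo, with 3.44 and 3.88 on Tie-2-Etv2 arrays and 3.80 and 3.62 on control arrays, and in the yolk sac, with 3.72 and 3.60 on Tie-2-Etv2 arrays and 4.06 and 3.70 on control arrays. Neither of these differences passed (embryo −0.053, adjusted p = 0.960; yolk sac −0.22, adjusted p = 0.451). In the same yolk sac CD45- samples, then, the alpha chain of the IL-3 receptor was lower and the shared beta chain higher on its brighter probe. Whether the 2 chains changed in the same cells was not tested.

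Csf3r, the receptor of the granulocyte factor G-CSF, gave the flattest values of the 7. Yolk sac CD45- cells had 6.33 and 6.54 on Tie-2-Etv2 arrays and 5.89 and 5.78 on control arrays. All other groups lay between 6.09 and 6.87. The difference in yolk sac CD45- cells, 0.60 ± 0.22 (1.52-fold higher), was called by a narrow margin (adjusted p = 0.049). It was lost when any of the 4 arrays was left out (0.50 to 0.70, adjusted p = 0.0900 to 0.195), under quantile normalization (0.20, adjusted p = 0.595), with the percentile over probes detected on all arrays (0.28, adjusted p = 0.366), with no filter (adjusted p = 0.0854) and in fits of the 4 arrays or the yolk sac arrays alone (adjusted p = 0.0550 and 0.0665). In the other populations the difference was between 0.074 and 0.36 and did not pass.

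The single Csf3r probe lies at chr4:125721478-125721537 (mm9, plus strand), and its bases 31 to 60 are printed because part of them recurs elsewhere. Capitals mark a run of 16 bases that 7 promoter windows of other genes also hold.
Csf3r: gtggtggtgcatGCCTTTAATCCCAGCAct
Runs of 16 bases of this probe stood in 10 probes of other genes and in 22 of 32851 promoter windows of other genes. The probes of the other 6 receptors shared such a run with 0 or 1 probe of another gene and with 0 or 1 promoter window. Over all 55594 probes, 27.7% shared a run with at least 1 probe of another gene, and 0.272% with 50 or more. The share with as many as the 10 of the Csf3r probe was not counted. The length of 16 bases was chosen after the values had been seen, and whether other transcripts added to the Csf3r signal was not tested.

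Flt3, the receptor of Flt3 ligand on early blood progenitors, was dim. Its brightest probe, A_66_P116412 (chr5:148142576-148142635, mm9, minus strand), was well above background on 15 of 16 arrays, all but 1 Tie-2-Etv2 embryo CD45- array. Yolk sac CD45+ cells had 0.40 and −1.28 on Tie-2-Etv2 arrays and −2.74 and −0.43 on control arrays. Embryo CD45+ cells had −1.44 and −1.98 on Tie-2-Etv2 arrays and −1.05 and −2.50 on control arrays. Replicates differed by more here than the genotypes did, and the groups overlapped in both tissues. The difference in yolk sac CD45+ cells was 1.15 ± 0.77 (adjusted p = 0.292). Without control replicate 2 it was 2.30 (adjusted p = 0.042), and without control replicate 1 it was −0.0091.

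In CD45- cells Flt3 stayed between −4.96 and −3.68, with −3.77 and −4.07 on Tie-2-Etv2 and −3.68 and −4.32 on control yolk sac arrays. The other 2 Flt3 probes gave almost no signal. A_66_P126155 was well above background on 2 of 16 arrays and A_55_P2055242 on 1, a Tie-2-Etv2 yolk sac CD45+ array at −3.66. That array also held the highest value of the brightest probe, 0.40. The probe it lit is printed for this reason; it lies at chr5:148178496-148178555 (mm9, minus strand).
Flt3 A_55_P2055242: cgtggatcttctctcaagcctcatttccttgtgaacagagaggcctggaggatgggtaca

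**Figure D2:**
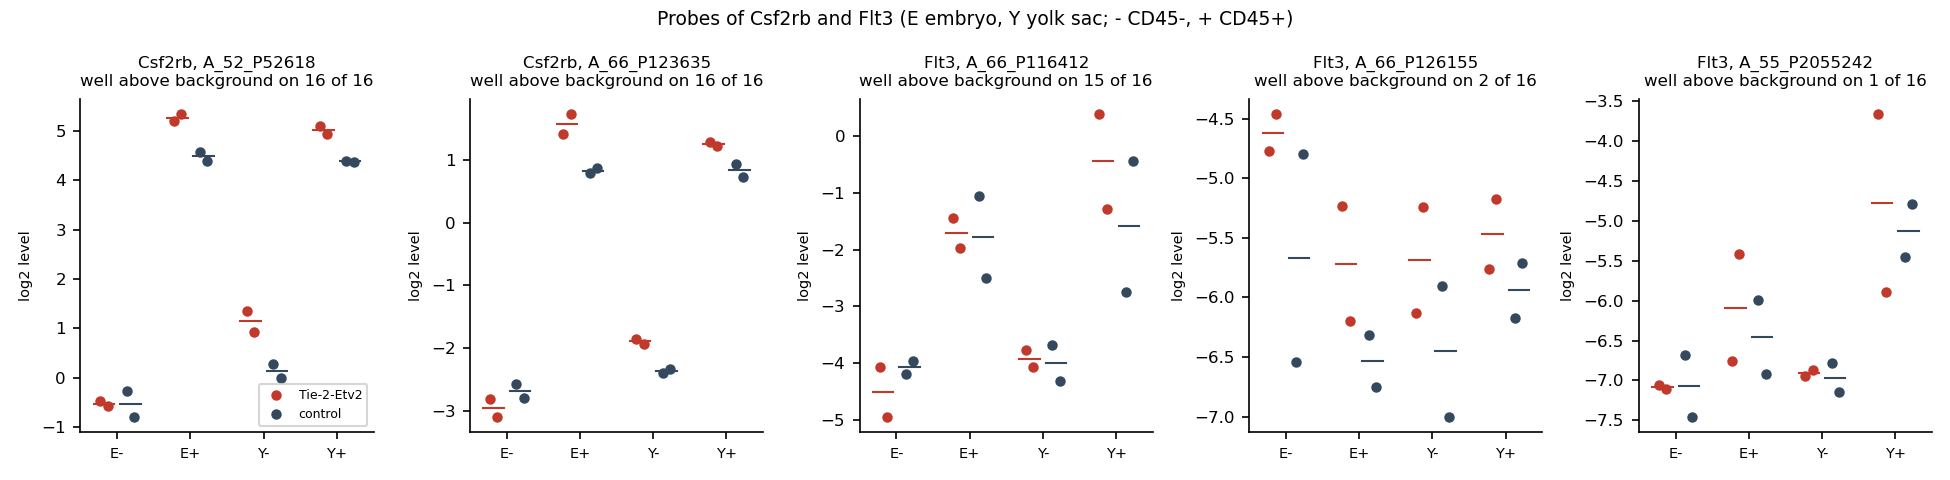
Levels of all probes of Csf2rb and Flt3 on the 16 arrays, log2 relative to the 75th percentile of the array, with 1 point per array, lines for means of 2 and Tie-2-Etv2 left of control. Both Csf2rb probes were well above background on 16 of 16 arrays and split by gate, whereas 2 of 3 Flt3 probes reached that level on 2 arrays and on 1 array; scales differ between panels.

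Il6ra encodes the chain that binds interleukin 6, and it changed most of the 7. Yolk sac CD45- cells had 3.31 and 2.93 on Tie-2-Etv2 arrays and −1.27 and −1.28 on control arrays. Yolk sac CD45+ cells had 4.23 and 4.27 on Tie-2-Etv2 arrays and 6.00 and 6.14 on control arrays. In Tie-2-Etv2 yolk sacs both gates thus lay between the 2 extremes that the control gates showed. The difference was 4.39 ± 0.42 in CD45- cells (adjusted p = 3.3e-05, 21.0-fold higher) and −1.82 ± 0.42 in CD45+ cells (adjusted p = 0.0072, 3.53-fold lower).

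In embryo CD45+ cells Il6ra had 5.52 and 5.35 on Tie-2-Etv2 arrays and 5.88 and 5.98 on control arrays, a difference of −0.50 ± 0.42 that did not pass (adjusted p = 0.667). In embryo CD45- cells it had −0.0088 and 0.29 on Tie-2-Etv2 arrays and 0.047 and −1.68 on control arrays. The 2 control arrays there lay further apart than the genotypes. The difference of 0.96 ± 0.42 did not pass (adjusted p = 0.693), but without control replicate 1 it was 1.82 (adjusted p = 0.0027). The probe lies at chr3:89674054-89674113 (mm9, minus strand).

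Il6ra signals with gp130, encoded by Il6st, which is named here after its values had been seen. Il6st ran against Il6ra in yolk sac CD45- cells, with 0.67 and 1.37 on Tie-2-Etv2 arrays and 3.24 and 3.30 on control arrays. Tie-2-Etv2 cells had the lower level in both yolk sac gates, where the CD45- difference was −2.25 ± 0.27 (adjusted p = 0.000126) and that of CD45+ cells −2.37 ± 0.27 (adjusted p = 0.000128). In the embryo its differences of −0.47 in CD45- cells and −0.82 in CD45+ cells did not pass (adjusted p = 0.868 and 0.144). The 2 chains of the IL-6 receptor were therefore lower together in yolk sac CD45+ cells and moved apart in yolk sac CD45- cells.

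Epor, the erythropoietin receptor, also turned with the gate. Yolk sac CD45+ cells had 1.61 and 1.13 on Tie-2-Etv2 arrays and 3.97 and 3.53 on control arrays. Yolk sac CD45- cells had 3.59 and 3.24 on Tie-2-Etv2 arrays and 2.46 and 1.92 on control arrays. The groups were apart in both gates, and their order was exchanged: in Tie-2-Etv2 yolk sacs the CD45- cells had more Epor than the CD45+ cells. The difference was −2.38 ± 0.29 in CD45+ cells (adjusted p = 0.00019, 5.21-fold lower) and 1.22 ± 0.29 in CD45- cells (adjusted p = 0.0071, 2.33-fold higher). The call in CD45- cells was lost without Tie-2-Etv2 replicate 1 (1.05, adjusted p = 0.0604) or without control replicate 2 (0.95, adjusted p = 0.0679).

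Embryo values of Epor differed in the same directions but passed in neither gate. Embryo CD45+ cells had 1.85 and 1.80 on Tie-2-Etv2 arrays and 2.39 and 3.11 on control arrays, a difference of −0.92 ± 0.29 (adjusted p = 0.130, and 0.0353 with the replicate number as a block). Embryo CD45- cells had 1.85 and 1.90 on Tie-2-Etv2 arrays and 0.91 and 1.22 on control arrays, a difference of 0.81 ± 0.29 (adjusted p = 0.491). Groups did not overlap in either gate. The summed level of 8 erythroid markers was 9.32 to 9.46 on Tie-2-Etv2 and 9.69 to 10.1 on control arrays of yolk sac CD45+ cells, and 9.25 to 9.82 on Tie-2-Etv2 and 9.98 to 10.5 on control arrays of yolk sac CD45- cells. It was thus lower on Tie-2-Etv2 arrays in both gates, and so went with Epor in CD45+ cells and against it in CD45- cells; its part in the Epor values was not tested. The Epor probe lies at chr9:21763422-21763481 (mm9, minus strand), that of Csf2ra at chr19:61300336-61300395 (minus strand) and that of Il3ra at chr14:15187898-15187957 (plus strand).

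Ordered by mean level over the 8 groups, the receptors fell into different patterns. Csf2ra, Csf2rb and Flt3 had all 4 CD45- groups below all 4 CD45+ groups, and so did Il6ra and Il3ra. Il6ra ran from control yolk sac CD45- cells (mean −1.27) to control yolk sac CD45+ cells (6.07), and Csf2rb from control embryo CD45- cells (−0.53) to Tie-2-Etv2 embryo CD45+ cells (5.27), each with overlapping arrays in 2 of the 7 pairs of neighbours. Epor ran from control embryo CD45- cells (1.06) and Tie-2-Etv2 yolk sac CD45+ cells (1.37) to Tie-2-Etv2 yolk sac CD45- cells (3.41) and control yolk sac CD45+ cells (3.75), with the gates intermixed and 3 neighbouring pairs overlapping. In Il3ra 5 of 7 neighbouring pairs overlapped, and only the steps from Tie-2-Etv2 to control yolk sac CD45- cells, and from these to Tie-2-Etv2 yolk sac CD45+ cells, were free of overlap. In Csf3r and Flt3 6 of 7 overlapped, the exceptions being control yolk sac CD45- cells below the rest for Csf3r and the step between the gates for Flt3.

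**Figure D3:**
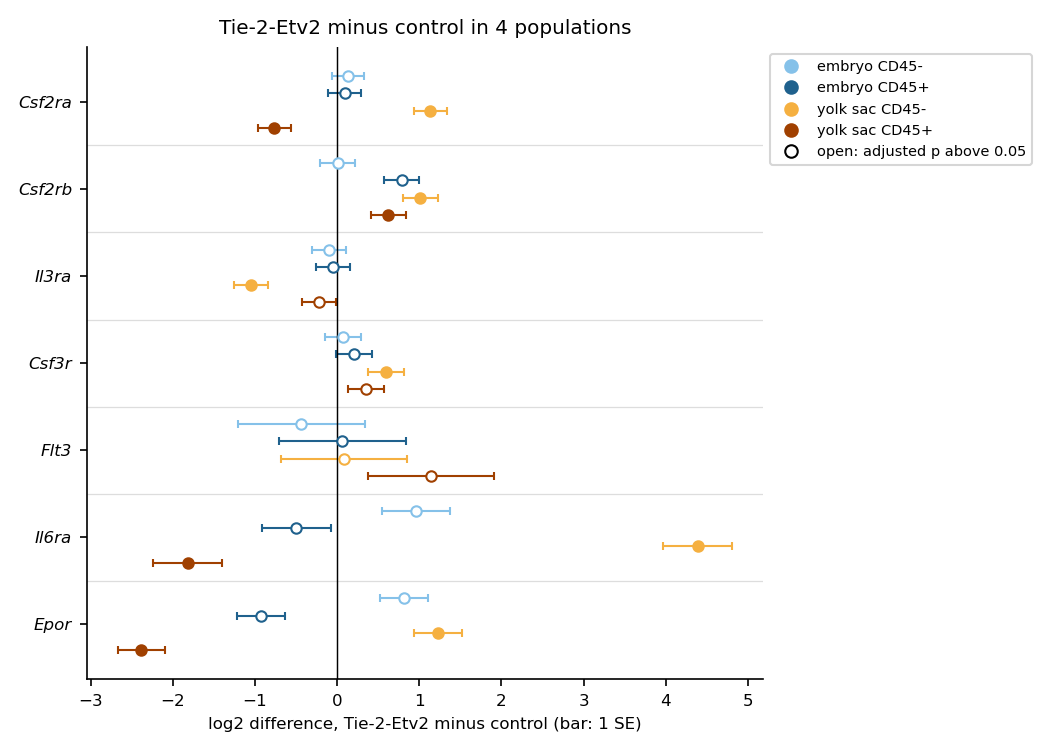
Difference in log2 level, Tie-2-Etv2 minus control, of the 7 receptor genes in 4 populations; points are estimates from 2 arrays against 2, bars are 1 SE, and filled points passed an adjusted p of 0.05. Filled points are found only for the yolk sac, where Il6ra reached 4.39 in CD45- cells and Epor −2.38 in CD45+ cells, while Csf2ra, Il6ra and Epor lay on opposite sides of 0 in the 2 gates.

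Whether the Tie-2-Etv2 difference itself depended on gate was tested as a difference of differences, CD45+ minus CD45-. In the yolk sac 3 of 7 receptors passed, all lower, beside 18.4% of all genes (7.89% higher and 10.5% lower, where the share of higher among calls was 42.9%, against 55.5% with the percentile over detected probes). These were Il6ra (−6.21 ± 0.59, adjusted p = 8.8e-05), Epor (−3.60 ± 0.41, adjusted p = 0.00025) and Csf2ra (−1.90 ± 0.28, adjusted p = 0.0012). All 3 passed under every alternative tried and without any single array. Il3ra differed in the other direction (0.82) and missed (adjusted p = 0.0819), but passed as higher in 4 of 10 alternatives, namely normexp correction (0.81, adjusted p = 0.0482), quantile normalization (1.06, adjusted p = 0.0158), the percentile over detected probes (1.05, adjusted p = 0.0221) and a trended prior (adjusted p = 0.0486). In the embryo 0 of 7 passed by limma (3 at an unadjusted p under 0.05), beside 1.14% of all genes (0.565% higher and 0.573% lower). Of all 24589 genes, 2053 passed at that unadjusted level in the embryo. Epor came nearest there, at −1.74 ± 0.41 (adjusted p = 0.0985), and passed with the replicate number as a block (adjusted p = 0.0205) and without control CD45+ replicate 1 (−2.09, adjusted p = 0.0471).

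Whether the Tie-2-Etv2 difference depended on tissue was tested as yolk sac minus embryo. In CD45- cells 3 of 7 receptors passed, all higher, beside 15.9% of all genes (9.52% higher and 6.4% lower). The share of higher among those calls was 59.8%, against 31.7% with the percentile over detected probes and 48.1% under quantile normalization. These were Il6ra (3.43 ± 0.59, adjusted p = 0.0060), Csf2ra (1.00 ± 0.28, adjusted p = 0.0368) and Csf2rb (1.00 ± 0.30, adjusted p = 0.0489). Only Il6ra passed under every alternative. Csf2ra was lost in 7 of the 8 fits without 1 array and in 4 of 9 other alternatives, with the lowest value under the percentile over detected probes (0.67, adjusted p = 0.163). Csf2rb was lost in 6 of 8 and in 3 of 9, with the lowest of those 9 values under the same scaling (0.66, adjusted p = 0.126). Il3ra missed narrowly (−0.94 ± 0.29, adjusted p = 0.0533) and passed as lower in 6 of 9 alternatives, among them quantile normalization (−1.28, adjusted p = 0.0114), the percentile over detected probes (−1.28, adjusted p = 0.0138) and normexp correction (−0.88, adjusted p = 0.0309). In CD45+ cells 0 of 7 passed by limma, beside 3.13% of all genes (1.1% higher and 2.03% lower). The share of higher among those calls was 35.1% and, over detected probes, 24.6%. At an unadjusted p under 0.05 the count was 3 of 7, beside 4560 of 24589 genes. Epor came nearest (−1.46 ± 0.41, adjusted p = 0.0925), and passed with the replicate block (adjusted p = 0.0285) and without control embryo replicate 2 (−1.81, adjusted p = 0.0438).

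The promoters of the 3 genes whose Tie-2-Etv2 difference depended on gate in the yolk sac are printed as the 250 bases before the gene start from RefSeq (GRCm38.p6, minus strand, read in the direction of the gene). Il6ra lies at chr3:89913197-89913446, Epor at chr9:21963577-21963826 and Csf2ra at chr19:61228419-61228668. Capitals mark GAGGAA and GGAAGT, which share the ETS core GGAA, and AGATAA, which holds the GATA core, each on either strand.
Il6ra: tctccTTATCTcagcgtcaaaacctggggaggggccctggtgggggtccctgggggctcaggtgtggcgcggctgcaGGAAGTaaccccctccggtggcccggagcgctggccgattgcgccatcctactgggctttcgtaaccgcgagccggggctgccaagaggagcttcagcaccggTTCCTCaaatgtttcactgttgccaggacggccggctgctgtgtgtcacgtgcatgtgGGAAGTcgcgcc
Epor: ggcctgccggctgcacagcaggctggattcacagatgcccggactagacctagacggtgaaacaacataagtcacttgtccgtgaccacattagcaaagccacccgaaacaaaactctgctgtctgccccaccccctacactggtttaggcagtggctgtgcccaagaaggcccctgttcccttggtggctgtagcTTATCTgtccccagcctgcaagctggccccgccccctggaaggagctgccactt
Csf2ra: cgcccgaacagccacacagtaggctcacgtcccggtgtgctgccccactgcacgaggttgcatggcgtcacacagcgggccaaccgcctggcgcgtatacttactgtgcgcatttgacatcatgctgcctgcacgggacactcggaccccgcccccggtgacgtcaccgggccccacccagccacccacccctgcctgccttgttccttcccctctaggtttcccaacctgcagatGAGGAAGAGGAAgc
RefSeq promoters were held for 6 of the 7 genes. In windows of 300 bases, 250 before the start and 50 after it, Il6ra held 1 GAGGAA, 2 GGAAGT and 1 AGATAA, Epor held 1 AGATAA, and Csf2ra held 2 GAGGAA. Csf3r held 1 GAGGAA, and Flt3 and Il3ra held 1 GGAAGT each. Over 32851 windows of that length 28.3% held GAGGAA, 23.8% GGAAGT and 11.2% AGATAA. A match describes the letters of the window and is not a measured site.

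The second factor of the design was the gate, and CD45+ cells were compared with CD45- cells of the same tissue and genotype. Csf2rb, Csf2ra and Flt3 were higher in CD45+ cells in all 4 such comparisons. Il6ra was higher in 3, Il3ra in 3 and Epor in the 2 control comparisons. Csf3r passed in none, and in Tie-2-Etv2 yolk sacs Epor was lower in CD45+ cells. Each Flt3 call was lost in 3 of 4 fits without 1 array, while no Csf2rb or Csf2ra call was lost. These comparisons use the same arrays as the genotype comparisons above.

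In Tie-2-Etv2 embryos 5 of 7 receptors passed, all higher in CD45+ cells, beside 30.3% of all genes (16.4% higher and 13.9% lower). In control embryos 6 of 7 passed, all higher, beside 36.6% (19.9% higher and 16.6% lower). In Tie-2-Etv2 yolk sacs 4 passed as higher and 1 as lower, beside 10.4% (4.46% higher and 5.93% lower). In control yolk sacs 5 passed as higher, beside 38.4% (22.6% higher and 15.8% lower). With the percentile over detected probes the share of higher among all calls was 43% in Tie-2-Etv2 embryos (54.1% in the main fit), 44.1% in control embryos (54.5%) and 43.8% in control yolk sacs (58.9%). The median difference over the 7 was 2.81 and 1.26 in Tie-2-Etv2 embryos and yolk sacs, and 2.30 and 2.42 in control embryos and yolk sacs, where that of all genes was 0.10, 0.058, 0.079 and 0.20 in the same order.

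Csf2rb had the largest difference of the 7 in Tie-2-Etv2 cells, 5.79 ± 0.21 in embryos and 3.86 ± 0.21 in yolk sacs (adjusted p = 7.3e-08 and 5.3e-06). In control cells it was 5.02 in embryos and 4.25 in yolk sacs. Il6ra had the largest in control cells, 6.75 ± 0.42 in embryos and 7.34 ± 0.42 in yolk sacs (162-fold, adjusted p = 3.9e-07). In Tie-2-Etv2 cells the Il6ra difference was 5.29 in embryos and 1.13 ± 0.42 in yolk sacs. The last of these did not pass (adjusted p = 0.143), but passed with normexp correction (0.0461) and in a fit of the yolk sac arrays alone (0.0133). The gate thus separated Il6ra levels least in Tie-2-Etv2 yolk sacs, which is the difference of differences given above seen from the other side.

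Csf2ra differed by 3.56 in Tie-2-Etv2 and 3.60 in control embryos, and by 1.69 ± 0.20 in Tie-2-Etv2 and 3.59 ± 0.20 in control yolk sacs. Il3ra differed by 1.39 in Tie-2-Etv2 and 1.34 in control embryos, and by 1.26 ± 0.21 in Tie-2-Etv2 yolk sacs (adjusted p = 0.0026). In control yolk sacs the Il3ra difference of 0.44 did not pass (adjusted p = 0.119). Epor differed by −0.052 ± 0.29 in Tie-2-Etv2 embryos (adjusted p = 0.919) and by −2.04 ± 0.29 in Tie-2-Etv2 yolk sacs (adjusted p = 0.0011). In controls the Epor difference was 1.69 in embryos (adjusted p = 0.0010) and 1.56 in yolk sacs (adjusted p = 0.0016). The higher level of Epor in CD45+ than in CD45- cells was thus called in control mice and not in Tie-2-Etv2 mice, and the difference between genotypes, given above, passed in the yolk sac and not in the embryo.

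Flt3 was higher in CD45+ cells by 2.81 and 3.48 in Tie-2-Etv2 embryos and yolk sacs (adjusted p = 0.0186 and 0.0143), and by 2.30 and 2.42 in control embryos and yolk sacs (adjusted p = 0.0378 and 0.0296). Each of these calls was lost in 3 of 4 fits without 1 array. The values of those fits were 2.36 to 3.25 and 2.64 to 4.32 in Tie-2-Etv2 embryos and yolk sacs. In control embryos and yolk sacs they were 1.58 to 3.03 and 1.26 to 3.57. Of 10 other settings, 4 lost each control call, 1 the Tie-2-Etv2 embryo call and 2 the Tie-2-Etv2 yolk sac call. Under normexp correction the difference was 0.94 in Tie-2-Etv2 embryos (adjusted p = 0.141), 0.99 in control embryos (0.108) and 1.17 in control yolk sacs (0.0582). Csf3r differed by 0.10 and 0.27 in Tie-2-Etv2 embryos and yolk sacs, and by −0.029 and 0.51 in control embryos and yolk sacs, with adjusted p of 0.773 and 0.638, and 0.942 and 0.0934. The control yolk sac value passed without control CD45+ replicate 1 (0.77, adjusted p = 0.0311).

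**Figure D4:**
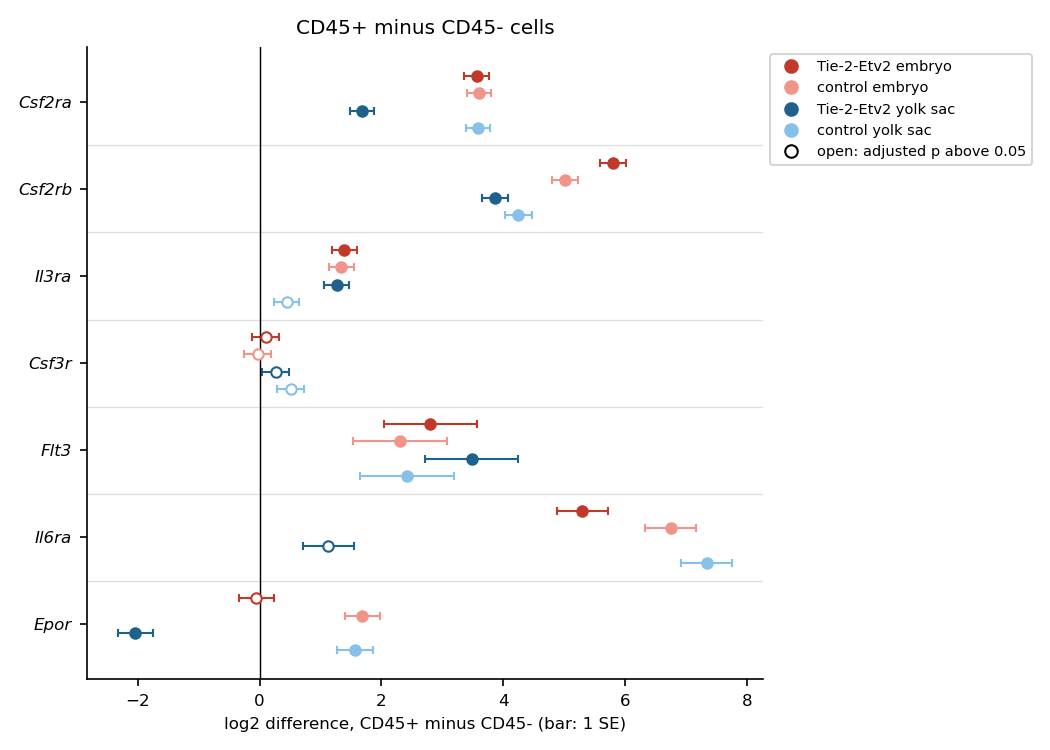
Difference in log2 level, CD45+ minus CD45- cells, of the 7 receptor genes in 4 pairs of groups, with points from 2 arrays against 2, bars of 1 SE and filled points past an adjusted p of 0.05. Il6ra reached 7.34 in control yolk sacs and 1.13 in Tie-2-Etv2 yolk sacs, Epor changed side between them (1.56 in control, −2.04 in Tie-2-Etv2), and Csf3r stayed near 0.

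Yolk sac and embryo were on different slides, so their differences are given with the slide unseparated. In Tie-2-Etv2 CD45- cells 4 of 7 receptors were higher in the yolk sac, beside 18% of all genes (12.5% were lower, which made the share of higher among calls 59%, against 37.1% with the percentile over detected probes). These were Il6ra (2.98, adjusted p = 0.00075), Csf2rb (1.67, adjusted p = 0.00048), Epor (1.53, adjusted p = 0.0037) and Csf2ra (0.85, adjusted p = 0.010). The last was lost under quantile normalization (0.62, adjusted p = 0.0534), with the percentile over detected probes (0.59, adjusted p = 0.0559), without embryo replicate 1 (0.78, adjusted p = 0.0686) and without yolk sac replicate 1 (0.88, adjusted p = 0.0501). In Tie-2-Etv2 CD45+ cells 1 of 7, Csf2ra, was lower in the yolk sac (−1.03, adjusted p = 0.0091), beside 7.29% of all genes (5.27% were higher, a share of 41.9% of the calls, against 29.2% over detected probes). This call was lost without embryo replicate 1 or yolk sac replicate 2 (adjusted p = 0.0649 and 0.0661).

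In control CD45- cells Il3ra (1.07, adjusted p = 0.010) and Epor (1.13, adjusted p = 0.034) were higher in the yolk sac, 2 of 7, beside 5.45% of all genes, and none of the 7 was called lower, beside 6.09%. Csf3r (−0.66, adjusted p = 0.0803) was called lower with normexp correction (−0.69, adjusted p = 0.0402) and with a trended prior (adjusted p = 0.0497). Csf2rb (0.67, adjusted p = 0.0710) was called higher in 5 of 9 alternatives, at best with the percentile over detected probes (0.75, adjusted p = 0.0273). The Epor call was lost without any single array (0.86 to 1.40, adjusted p = 0.055 to 0.21), and the Il3ra call without replicate 1 of the embryo (0.87, adjusted p = 0.0638) or of the yolk sac (0.98, adjusted p = 0.0779). In control CD45+ cells 0 of 7 passed by limma, beside 0.614% of all genes called higher and 1.09% called lower. At an unadjusted p under 0.05 the count was 1 of 7, beside 3265 of 24589 genes. The largest difference of the 7 there was 1.01 ± 0.29 for Epor (adjusted p = 0.134), which passed with the replicate block (adjusted p = 0.0451).

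The genes whose 8 group means followed each receptor most closely were taken from all tested genes with a symbol. For Il6ra these were Gusb (Pearson r = 0.999), Pik3cg (0.999) and Laptm5 (0.998), and for Csf2ra Cybb (0.998), Morc3 (0.997) and Nkg7 (0.996). Csf2rb was followed by Galnt6 (0.993), Stap1 (0.993) and Mefv (0.991), and Il3ra by Gm4759 (0.985), Rab19 (0.984) and A530064D06Rik (0.982). The closest to Epor reached only 0.965 (Plpp7), 0.944 (Adcy9) and 0.942 (Hpgd). For Csf3r they were Mtif2 (0.985), Slc10a1 (0.983) and Cdh8 (0.980), and for Flt3 Speer2 (0.983), Vmn1r25 (0.979) and Omg (0.977). These are the best of 16527 genes over 8 means that share slides and arrays, and are given as a description.

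The ligands and partner chains of these receptors were followed as lists. Of 10 cytokine genes 7 were tested. In yolk sac CD45- cells 2 rose, 1 fell and 4 did not pass in Tie-2-Etv2 against control, beside 41.8% of all genes called. Flt3l, which encodes the ligand of Flt3, stood at 2.44 and 2.22 on Tie-2-Etv2 arrays and at 0.17 and −0.14 on control arrays (2.31 ± 0.21, adjusted p = 2.7e-05). Csf2, which encodes GM-CSF, was at least 3.69-fold higher, as it was not well above background on either control array (adjusted p = 0.0075); its mean was taken against the lowest level measured well above background. Kitl, the ligand of Kit, was lower (−2.53 ± 0.46, adjusted p = 0.0016), as it was in yolk sac CD45+ cells (−2.46 ± 0.46, adjusted p = 0.0024), where no cytokine gene rose. In embryo CD45- cells Flt3l rose by 1.80 (adjusted p = 0.0011), and in embryo CD45+ cells no listed cytokine gene passed.

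Of 16 related receptors, 3 rose and 5 fell in yolk sac CD45- cells, beside 26.1% and 15.8% of all genes. In yolk sac CD45+ cells 4 rose and 5 fell, beside 18.1% and 14.4%. Il5ra, the IL-5 receptor alpha chain that pairs with Csf2rb, rose in all 4 populations. It was at least 39.6-fold higher in yolk sac CD45- cells (adjusted p = 7.3e-06) and at least 4.68-fold higher in embryo CD45- cells (adjusted p = 0.017), and it rose by 4.60 and 3.86 in yolk sac and embryo CD45+ cells (adjusted p = 4.9e-05 and 0.0012). Il10ra rose by 5.39 in yolk sac and 2.91 in embryo CD45- cells, and the oncostatin M receptor gene Osmr fell in yolk sac CD45- cells (−2.64, adjusted p = 0.0121).

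In yolk sac CD45+ cells the stem cell factor receptor gene Kit rose by 3.80 ± 0.58 (adjusted p = 0.00069) and the leukemia inhibitory factor receptor gene Lifr fell by 3.33 ± 0.57 on the log2 scale (adjusted p = 0.0014). Csf1r, the macrophage factor receptor, is named after its values had been seen. In yolk sac CD45+ cells it stood at 5.67 and 5.93 on Tie-2-Etv2 arrays and at 9.30 and 8.97 on control arrays (−3.33 ± 0.26, adjusted p = 1.8e-05), and the macrophage marker sum given above was lower on the same arrays. In embryo CD45+ cells it stood at 8.39 and 7.98 on Tie-2-Etv2 arrays and at 9.10 and 8.99 on control arrays and did not pass (−0.86, adjusted p = 0.113).

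Signalling genes below the receptors were called mostly in the yolk sac, as were genes in general. Of all genes, 41.8% and 32.5% were called in yolk sac CD45- and CD45+ cells. In embryo CD45- and CD45+ cells it was 1.29% and 3.01%. Of 11 Janus kinase and STAT genes 5 rose and 1 fell in yolk sac CD45- cells, and 7 rose and 3 fell in yolk sac CD45+ cells. Stat4 rose in all 4 populations, by 4.09 and 4.34 in yolk sac CD45- and CD45+ cells and by 2.67 and 2.24 in embryo CD45- and CD45+ cells. Stat5a, a main effector of Epor and Csf2rb signalling, rose by 2.24 ± 0.18 and 1.34 ± 0.18 in yolk sac CD45- and CD45+ cells (adjusted p = 1.2e-05 and 0.00034). Tyk2 rose by 1.80 in yolk sac CD45- cells. Stat2 fell in both yolk sac gates (−1.32 and −2.51).

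Of 12 adaptors and other kinases 8 rose in yolk sac CD45- cells, led by Btk, a kinase of blood cells, with 5.31 and 5.04 on Tie-2-Etv2 arrays and −3.20 and −3.70 on control arrays (8.63 ± 0.21, adjusted p = 9.25e-09). Pik3cd rose by 4.93 and Syk by 2.69. Among them 2 rose and 2 fell in yolk sac CD45+ cells. Ptpn11 (1.20) and Btk (0.91) rose, and Fes was among those that fell (−0.69). Btk (5.27), Pik3cd (2.31) and Syk (1.15) rose in embryo CD45- cells too.

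Inhibitors and targets moved both ways in the yolk sac. Of 9 inhibitors 3 rose and 3 fell in CD45- cells, and 1 rose and 4 fell in CD45+ cells. Socs3, which blocks gp130 and Csf3r signalling, fell in both gates, with a difference of −2.60 ± 0.44 in CD45- cells and −2.69 ± 0.44 in CD45+ cells (adjusted p = 0.00099 and 0.0010). Ptpn6, a phosphatase that dampens Epor signalling, rose by 4.01 in CD45- cells and fell in CD45+ cells (−0.79), and Inpp5d rose (1.97) in CD45- cells. Cish, itself a STAT5 target, rose by 2.98 ± 0.83 in CD45+ cells (adjusted p = 0.019), and Pias3 fell in both gates (−1.57 and −1.25). Ptpn6 also rose in embryo CD45- cells (2.13).

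Of 9 target genes 3 rose and 3 fell in yolk sac CD45- cells, and 2 rose in yolk sac CD45+ cells. Pim2, a survival kinase, rose by 4.01 and 2.10 in CD45- and CD45+ cells and by 1.18 in embryo CD45+ cells (adjusted p = 0.032). Bcl2 (−2.65), Id1 (−2.41) and Ccnd2 (−1.75) fell in yolk sac CD45- cells, and Ccnd2 rose in yolk sac CD45+ cells (1.95). The share of listed genes called can be read beside the percentages of all genes called given above. In embryo CD45- cells the leukocyte markers summed to 4.67 to 4.87 on Tie-2-Etv2 arrays and 1.83 to 1.88 on control arrays, and the megakaryocyte markers to 7.61 to 8.20 on Tie-2-Etv2 arrays and 2.77 to 3.38 on control arrays. The granulocyte markers of embryo CD45+ cells summed to 10.5 to 10.9 on Tie-2-Etv2 arrays and 6.47 to 7.76 on control arrays. The part of these markers in the calls of the lists was not tested. Over all lists 24 rose and 13 fell of 64 tested genes in yolk sac CD45- cells, beside 26.1% and 15.8% of all genes. In yolk sac CD45+ cells 16 rose and 15 fell, beside 18.1% and 14.4%. The embryo had 9 that rose in CD45- cells and 4 that rose in CD45+ cells, beside 1.25% and 2.29% of all genes. None fell in either embryo gate.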

How the data were processed

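RNA of VE-cadherin-positive sorted cells was measured on 16 Agilent 1-colour arrays (Cy3; Feature Extraction 10.7 by Agilent, as the submitters' processing notes and the file headers give it). The deposited scanner files hold processed intensities that the authors' software background-subtracted and detrended within each array, per the file headers, with no normalization between arrays; they also hold flags, a unit taken here as other, for outlier spots and spots well above background, per the file headers. The deposited value table holds log2 values; the sources used here do not say how they were made. Array differences in it correlated with the scanner values at 1.000000 or above to that precision, and each probe had been centred on its median over the 4 arrays sharing tissue and gate, so the scale, centring and direction were found, while each array's constant stays unknown. Its medians on replicates 1 and 2 were 0.0281 and −0.0323 for Tie-2-Etv2 and 0.175 and −0.0945 for control embryo CD45- cells. Embryo CD45+ medians were 0.00548 and −0.0324 for Tie-2-Etv2 and 0.166 and −0.0837 for control. Yolk sac CD45- medians were 0.0156 and −0.00454 for Tie-2-Etv2 and 0.0851 and −0.183 for control. Yolk sac CD45+ medians were −0.00892 and −0.121 for Tie-2-Etv2 and 0.147 and 0.00331 for control. The table served as an alternative for genotype comparisons only.

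Control and outlier spots were left out and spots of a probe averaged (87 probes lost, 55594 used). Levels were log2 of the processed intensity minus the array's 75th percentile. Probes stayed in when both arrays of 1 or more groups were well above background (34126 probes), and the brightest probe stood for a gene (24589 genes, 16527 with a symbol). RefSeq (GRCm38.p6) named 26539 probes by accession, 2596 by symbol and 491 by synonym, while 25968 had none. Probe coordinates are those of the files (mm9), and their place in exons was not determined. Group means over all 16 arrays were fitted with limma 3.58.1 (R 4.3.3; 8 residual and 2.29 prior degrees of freedom), with Benjamini-Hochberg adjustment per comparison and a threshold of 0.05; errors are SEs of the fit. The pooled spread was used because 2 arrays a group give little of their own. A fold against a group with no array well above background is a lower bound. Python 3.11.15 with numpy 2.4.6, pandas 2.3.3 and matplotlib 3.10.9 prepared tables and figures. The fit was tested on simulated data.

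Groups came from the sample labels; the transgenic CD45- samples of the embryo have only Tie-2 in their titles, but Tie-2-Etv2 in their characteristics. Same-numbered replicates deviated together only in part (correlation of replicate differences 0.0241 to 0.385 in the embryo and −0.00622 to 0.372 in the yolk sac), so the numbers were not taken as pairs. Named genes were the 7 receptors, the 3 genes most like each by group means, and from each pathway list (cytokines, related receptors, Janus kinases and STATs, adaptors and other kinases, inhibitors, targets) the called genes with the largest differences, at most 4 a list and comparison; some genes that this rule names are not reported here. Marker lists were endothelial, leukocyte, macrophage, granulocyte, mast cell, megakaryocyte, erythroid, lymphoid, mesenchymal and endoderm genes. The receptors and lists were chosen with earlier results of these data known.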

Additional observations from a re-analysis of the deposited data

Results flagged for a closer look

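The effect of Tie-2-Etv2 differed between CD45+ and CD45- cells of the yolk sac, by a test of the difference itself, for Il6ra (−6.21 ± 0.59, adjusted p = 8.8e-05), Epor (−3.60 ± 0.41, adjusted p = 0.00025) and Csf2ra (−1.90 ± 0.28, adjusted p = 0.0012). In each of the 3 genes both Tie-2-Etv2 arrays lay above both control arrays in CD45- cells and below them in CD45+ cells. The effect also differed between yolk sac and embryo in CD45- cells, by the same kind of test, for Il6ra (3.43 ± 0.59, adjusted p = 0.0060), Csf2ra (1.00 ± 0.28, adjusted p = 0.0368) and Csf2rb (1.00 ± 0.30, adjusted p = 0.0489). In this comparison of tissues Il6ra kept its call under all 9 other settings, while Csf2ra lost it in 4 and Csf2rb in 3. Without 1 array the differences were 0.70 to 1.31 for Csf2ra and 0.74 to 1.27 for Csf2rb. With limma on every probe as its own feature, neither Csf2rb probe passed (adjusted p = 0.0542 and 0.0699). Groups of 2 arrays are too small for a test of single outlying arrays.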

How the results depend on the processing

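Of the receptors' called differences, 407 values under other settings kept their direction and call and 33 lost the call, while without single arrays 153 kept it and 47 lost it; none reversed. Of the differences not called, 344 stayed so, 30 passed and 6 reversed, and without single arrays 154, 8 and 18. For tissue comparisons and differences of effects, only receptors with an unadjusted p under 0.05 in the main fit entered these counts and the reversals below. The cause of these shifts was not tested. The replicate numbers of the labels share only a number; with the replicate block, counts of receptors called were, each time for Epor, 1 in Tie-2-Etv2 against control embryo CD45+ cells, 1 for yolk sac against embryo in control CD45+ cells, 1 for the yolk sac minus embryo effect in CD45+ cells and 1 for the gate difference in the embryo. The count in embryo CD45+ cells was also 1, for Csf2rb, with normexp, quantile normalization, the percentile over detected probes, a trended prior and the mean of probes. All genes called there numbered 1125, 961, 837, 1059 and 779 in that order. With the block they numbered 1066, 380, 931 and 318 in the order given above. In yolk sac against embryo, control CD45- cells gave 4 with normexp or a trended prior (beside 2933 and 3127 genes) and 1 with no filter (beside 2034). A fit of the compared arrays alone gave 0 there, beside 1955 genes (3 at an unadjusted p under 0.05, beside 5878). Tie-2-Etv2 CD45+ cells gave 2 with normexp or alone, beside 3080 and 2004 genes. The yolk sac minus embryo effect in CD45- cells gave 1 with no filter or alone, beside 2526 and 3270 genes. Yolk sac CD45+ cells gave 2 alone, beside 4496. Without single arrays the counts ran over 0 to 1 in embryo CD45- cells, 2 to 3 in yolk sac CD45+ cells, 0 to 2 and 0 to 1 for yolk sac against embryo in control CD45- and Tie-2-Etv2 CD45+ cells, 1 to 3 and 0 to 1 for the yolk sac minus embryo effect in CD45- and CD45+ cells, and 0 to 1 for the gate difference in the embryo.

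Reversals outside single arrays were Flt3 in embryo CD45- cells (normexp, 0.083), Flt3 in yolk sac CD45- cells (normexp −0.073, detected probes −0.23), Csf3r between the gates of Tie-2-Etv2 embryos (quantile −0.22, detected probes −0.085) and Csf2rb in embryo CD45- cells (mean of probes, −0.13). Without single arrays, ranges that crossed 0 were −0.088 to 0.29 and −0.21 to 0.15 for Csf3r between the gates of Tie-2-Etv2 and control embryos. Embryo CD45+ cells gave −0.66 to 0.79 for Flt3 and −0.28 to 0.17 for Il3ra. Embryo CD45- cells gave −0.17 to 0.44 for Csf2ra, −0.26 to 0.27 for Csf2rb, −0.10 to 0.25 for Csf3r, −0.88 to 0.0063 for Flt3 and −0.29 to 0.088 for Il3ra. For Flt3 they were −0.0091 to 2.30 in yolk sac CD45+ and −0.24 to 0.40 in yolk sac CD45- cells.

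Counts over all genes moved more than 1.5 times in these cases. Fits of the compared arrays alone called 134 genes against 316 in embryo CD45- cells, 0 against 739 in embryo CD45+ cells (2891 at an unadjusted p under 0.05), 4496 against 8000 in yolk sac CD45+ cells, 5269 against 8993 between the gates of control embryos, 166 against 280 for the gate difference in the embryo, 2004 against 3088 between tissues in Tie-2-Etv2 CD45+ cells, 0 against 419 between tissues in control CD45+ cells (1718 unadjusted) and 0 against 770 for the yolk sac minus embryo effect in CD45+ cells (3612 unadjusted). Normexp called 1125 in embryo CD45+ cells and a fit of the embryo arrays 407. With no filter the counts were 2008, 222, 321 and, for the yolk sac minus embryo effect in CD45- cells, 2526 against 3915, and normexp gave 126 between tissues in control CD45+ cells. Leaving out 1 array gave 6584 to 8901 genes in yolk sac CD45- cells against 10289, 5262 to 7495 in yolk sac CD45+ cells, 285 to 925 in embryo CD45+ cells, 1559 to 1881 against 2554 between the gates of Tie-2-Etv2 yolk sacs, and 177 to 393 for the gate difference in the embryo. Between tissues it gave 3466 to 5877 against 7498 in Tie-2-Etv2 CD45-, 666 to 2160 in Tie-2-Etv2 CD45+, 876 to 2497 against 2838 in control CD45- and 273 to 874 in control CD45+ cells, and for the yolk sac minus embryo effect 1501 to 3699 in CD45- and 88 to 1591 in CD45+ cells. Other scalings moved the median difference of all genes by −0.12 to −0.32 in yolk sac CD45- cells. Under quantile normalization and normexp correction the 5 receptors called higher remained above the shifted median. The percentile over detected probes shifts every gene alike, so positions against that median could not change. The Csf3r call was lost under quantile normalization and under the percentile over detected probes, as given above. Each group has 2 arrays, which limits precision, and dim probes such as those of Flt3 vary most; the deposited value table allows genotype comparisons only.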

Other observations

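The other genes of the receptor pathway differed both ways between the gates. Of 64 listed genes 29 were higher and 11 lower in CD45+ than in CD45- cells of Tie-2-Etv2 embryos, beside 16.4% and 13.9% of all genes, and 26 and 11 in control embryos, beside 19.9% and 16.6%. In Tie-2-Etv2 yolk sacs 9 were higher and 6 lower, beside 4.46% and 5.93%, and in control yolk sacs 27 and 11, beside 22.6% and 15.8%. The median difference over the 64 was 0.65 in Tie-2-Etv2 and 0.97 in control embryos, and 0.28 in Tie-2-Etv2 and 0.63 in control yolk sacs. The macrophage receptor gene Csf1r was higher by 6.92 in Tie-2-Etv2 embryos, 7.47 in control embryos, 3.66 in Tie-2-Etv2 yolk sacs and 6.50 in control yolk sacs. Ptpn6 was higher by 4.28 in Tie-2-Etv2 embryos, 6.61 in control embryos, 1.18 in Tie-2-Etv2 yolk sacs and 5.98 in control yolk sacs.

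Ligand genes ran both ways between the gates. Il6 was higher in CD45+ cells of Tie-2-Etv2 embryos (6.38 ± 1.69, adjusted p = 0.0156), control embryos (5.71, adjusted p = 0.0217) and Tie-2-Etv2 yolk sacs (6.39, adjusted p = 0.0362). In control yolk sacs its difference was 4.51 and did not pass (adjusted p = 0.0575). Kitl was lower in CD45+ cells in all 4, with differences of −3.95 in Tie-2-Etv2 embryos, −3.41 in control embryos, −2.35 in Tie-2-Etv2 yolk sacs and −2.43 in control yolk sacs. Flt3l was higher in CD45+ cells of Tie-2-Etv2 embryos (1.13), control embryos (2.61) and control yolk sacs (1.30), and lower in CD45+ cells of Tie-2-Etv2 yolk sacs (−0.76, adjusted p = 0.0458). Osmr, the receptor gene of oncostatin M, lacked signal well above background on all 8 CD45+ arrays and was at least 16.7-fold lower in CD45+ cells of Tie-2-Etv2 embryos, 27.4-fold in control embryos, 14.6-fold in Tie-2-Etv2 yolk sacs and 73.9-fold in control yolk sacs. Its ligand gene Osm was higher in CD45+ cells, by 3.88 in Tie-2-Etv2 and 3.50 in control embryos, and at least 14.0-fold in Tie-2-Etv2 and 21.2-fold in control yolk sacs.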
